A study of Mus musculus with 2 samples.

Results

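The gene Runx1 (ENSMUSG00000022952) was followed through its isoforms in the nanopore long reads and through its level in the short reads of mouse muscle stem cells (MuSCs). It lies on the minus strand of chromosome 16, at chr16:92601466-92826149 in GRCm38 (mm10). All isoforms assigned to it were taken, 40 of the 68065 that the long-read table counts, and were grouped by their 5′ end. Because the gene is on the minus strand, the 5′ end is the higher of the 2 coordinates in an isoform's name. The MuSCs came from mice of 3 months that carry Pax7creERT2 and R26-eYFPfl/fl on a C57BL6 background, so that Cre is driven in cells that express Pax7, a transcription factor of satellite cells, and YFP labels those cells and their progeny. All mice were given tamoxifen (20 mg/ml, 5 daily doses), tissue was taken 2 weeks after the last dose, and cells were sorted by a gate on YFP. Quiescent cells were from uninjured muscle and activated cells from muscle injured 72 hours earlier with 40 uL of 1.2% barium chloride, and both were loaded into a single droplet capture. The droplets were divided into a 10 percent library, read by Illumina and by nanopore, and a 90 percent library, read by Illumina alone. The tables hold no label for whether a barcode came from injured or uninjured muscle, and neither library has a replicate, so every interval below is a 95% interval for counting error and no test between cells was run.

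Runx1 is a DNA-binding transcription factor of the Runt family that binds DNA together with its partner Cbfb. It is best known as a regulator of blood stem cell formation. In skeletal muscle it is low in uninjured fibres, is induced by denervation and injury, and is known to act in the proliferation of myoblasts together with Myod1 and AP-1 factors. The gene has a distal and a proximal promoter, and transcripts from them differ in their 5′ leader and in the N terminus of the protein.

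Barcodes were compared in 2 classes of short-read depth. Barcodes of 3000 to 15000 UMIs with 0 UMIs of the cell cycle genes Rrm2, Top2a and Cdk1 are called shallow here, and barcodes of at least 20000 UMIs are called deep. There were 157 shallow and 79 deep barcodes in the 10 percent library, with median totals of 6729 and 65499 UMIs, and 1243 shallow and 606 deep barcodes in the 90 percent library, with medians of 4680 and 47106. The classes differ in depth as well as in cell state, and these cannot be told apart here. Markers of quiescent MuSCs were at least 2-fold higher in the shallow barcodes for 6 of 9 genes in each library, against 8.39% of all tested genes in the 10 percent and 6.06% in the 90 percent library (Calcr, Spry1, Chrdl2, Heyl, Notch3 and Sdc4), while Pax7 was at 27.8 CPM (UMIs of a gene scaled to a common total per class) in shallow and 12.2 CPM in deep barcodes of the 10 percent library and did not pass 2-fold. Of 7 markers of activated or cycling cells, 6 in the 10 percent and 5 in the 90 percent library were at least 2-fold lower in shallow barcodes, against 13.4% and 9.22% of all tested genes, and Myod1 was at least 2-fold higher in both. Mki67, Ccnb1, Birc5, Mcm5 and Pcna among them are cell cycle genes, like Rrm2, Top2a and Cdk1, whose absence defines the shallow class. Their lower values thus follow in part from the class rule and are no separate evidence of cell state. Immune markers summed to 348 CPM in shallow and 119 CPM in deep barcodes of the 10 percent library, with 6 of 13 listed markers at 0 in the shallow ones, and to 321 and 6.39 CPM in the 90 percent library. Cd74 alone gave 235 of the 348 CPM, and without it the sums in the 10 percent library were 113 and 117 CPM and those in the 90 percent library 282 and 5.62 CPM. Markers of endothelial, fibro-adipogenic, smooth muscle, Schwann and myofibre cells each summed to at most 88.7 CPM in either class of either library.

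The libraries were not independent. All 269 barcodes of at least 3000 UMIs in the 10 percent library were also in the 90 percent list, with a median of 1.23 times as many UMIs in the 10 percent library (quartiles 1.17 and 1.25), and for 263 of them the most similar profile among those barcodes was their own. These 269 barcodes held 825 Runx1 UMIs in the 10 percent and 833 in the 90 percent library. A droplet placed in either part would be listed in 1 library, and whether the 90 percent table also holds reads of the 10 percent library is not given in the sources used here, so a value seen in both libraries is not a repeat. For the 90 percent library, the Runx1 level, its course over depth, the share of barcodes with Runx1 and the totals of related genes are given also without the 634 barcodes that occur in both lists.

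The promoters are shown first because the isoforms divide by them. The windows below run from 250 bases before to 50 bases after the start site of RefSeq (GRCm38.p6, minus strand, 5′ to 3′), at chr16:92826025-92826324 for the distal and chr16:92697280-92697579 for the proximal promoter, and capitals mark each match to ACCACA, the core of the Runt family's binding motif.
distal promoter: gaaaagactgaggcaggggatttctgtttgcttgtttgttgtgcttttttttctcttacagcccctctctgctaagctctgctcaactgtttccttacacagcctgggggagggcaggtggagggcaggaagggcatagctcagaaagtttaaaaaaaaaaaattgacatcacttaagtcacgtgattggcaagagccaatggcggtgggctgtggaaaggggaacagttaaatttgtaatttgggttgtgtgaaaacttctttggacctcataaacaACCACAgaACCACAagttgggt
proximal promoter: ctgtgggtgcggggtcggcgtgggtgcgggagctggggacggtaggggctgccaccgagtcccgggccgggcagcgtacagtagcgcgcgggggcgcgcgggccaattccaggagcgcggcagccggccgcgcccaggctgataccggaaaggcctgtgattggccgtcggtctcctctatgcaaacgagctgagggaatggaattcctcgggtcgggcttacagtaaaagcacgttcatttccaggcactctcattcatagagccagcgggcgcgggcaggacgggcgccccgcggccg
The distal window held 2 matches to ACCACA, beginning 28 and 36 bases after the start site on the strand shown, and the proximal window held none on either strand. Of 32851 promoter windows of that length, 16.8% held at least 1 match. The E-box CANNTG had 3 matches in the distal and none in the proximal window, against 72.3% of windows with a match. Neither window held TGANTCA, the AP-1 motif (7.81% of windows), CAGCTG, an E-box that CANNTG also covers (16.3%), or TATAAA (13.6%). Each held 2 matches to CCAAT (37.4% of windows). The GC content was 45% in the distal and 69% in the proximal window, with a median of 52.7% over all windows. A match to these letters describes the sequence and does not show binding.

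Transcripts from the promoters begin their coding sequence differently. The next lines give the first 90 coding bases of the distal and the proximal reference transcript of Gencode, with the promoter-specific part in capitals and the shared exon in lower case.
distal coding start, from chr16 position 92825646 downwards: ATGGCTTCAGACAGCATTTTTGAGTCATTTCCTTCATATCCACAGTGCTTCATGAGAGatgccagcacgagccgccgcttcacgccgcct
proximal coding start, from chr16 position 92695753 downwards: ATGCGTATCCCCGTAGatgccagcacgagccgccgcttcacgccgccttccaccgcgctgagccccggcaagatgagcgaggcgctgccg
The promoter-specific coding part is 58 bases long in the distal and 16 bases long in the proximal transcript. Both then read into exon 3 of the distal transcript (chr16:92695484-92695737) and both end at the stop codon chr16:92605655-92605657 in the last exon, exon 8 (chr16:92601466-92606124).

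In the short reads, Runx1 took a larger part of the UMIs in shallow than in deep barcodes of both libraries. In the 10 percent library there were 522 Runx1 UMIs in the shallow barcodes, a level of 468 CPM (interval 429 to 510), and 210 in the deep barcodes, 41.2 CPM (35.8 to 47.1). The ratio was 11.4 (9.67 to 13.4). In the 90 percent library 4346 UMIs in shallow barcodes gave 674 CPM (654 to 694) and 1729 in deep barcodes gave 57.9 CPM (55.2 to 60.7), a ratio of 11.6 (11.0 to 12.3). Without the barcodes that occur in both lists the levels were 699.9 and 61.5 CPM and the ratio was 11.4 (10.6 to 12.2). Barcodes with at least 2 UMIs of immune markers and at least 1000 UMIs in all had 27.5 CPM of Runx1 in the 10 percent (14 barcodes) and 68.0 CPM in the 90 percent library (51 barcodes). Their median totals were 65325 and 33726 UMIs, within the range of the deep class. Without such barcodes the ratios of shallow over deep were 10.9 and 11.9. Runx1 was chosen with this difference known, so it is a description. Of 10076 genes with at least 20 UMIs over both classes of the 10 percent library, 8.39% were at least 2-fold higher and 13.4% at least 2-fold lower in shallow barcodes after adding 10 CPM to each class, and 0.526% had a ratio at least as high as Runx1. In the 90 percent library 6.06% of 14932 genes were at least 2-fold higher and 9.22% lower, and 0.375% reached the ratio of Runx1, as did 0.419% of 13829 genes without the barcodes in both lists.

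The number of Runx1 UMIs in a barcode differed far less between the classes than the level. Shallow barcodes of the 10 percent library held 0 to 16 Runx1 UMIs (median 3) and deep barcodes 0 to 14 (median 2), with means of 3.32 and 2.66. The ranges in the 90 percent library were 0 to 19 (median 3) and 0 to 24 (median 2), with means of 3.5 and 2.85. The per-barcode values overlapped almost fully, while the totals they are set against differed about as the inverse of the level ratio: the median total of shallow barcodes was 0.103 times that of deep barcodes in the 10 percent and 0.0994 times in the 90 percent library. A Runx1 UMI was found in 82.8% of shallow (76.0 to 88.4%) and 82.3% of deep barcodes (72.1 to 89.96%) of the 10 percent library, a difference of 0.524 points (-9.04 to 11.6). The shares in the 90 percent library were 84.3% (82.2 to 86.3%) and 81.4% (78.0 to 84.4%), a difference of 2.96 points (-0.638 to 6.77), or 2.55 points (-1.65 to 7.13) without the barcodes in both lists. With each barcode thinned to 3000 UMIs the expected shares were 67.9% and 12.8% in the 10 percent, and 76.3% and 15.7% in the 90 percent library. Barcodes of at most 500 UMIs were taken as the background, because no class of barcodes here is known to lack Runx1. Those of the 10 percent library held 50198 short-read but 1638193 long-read UMIs, so they are not known to be empty droplets. A Runx1 UMI was in 0.558% of 1613 such barcodes of the 10 percent library (median 16 UMIs) and in 3.82% of 393 of the 90 percent library (median 238), at 219 CPM (109 to 392) and 190 CPM (114 to 297). These levels were above those of the deep barcodes and below those of the shallow ones. The part that free RNA took in the UMIs of the deep barcodes was not tested.

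The level was highest in barcodes of 3000 to 15000 UMIs and fell off towards both ends of the depth range. In the 90 percent library it was 406 CPM (361 to 454) at 1000 to 3000 UMIs, 737 (712 to 763) at 3000 to 6000, 483 (458 to 508) at 6000 to 15000, 99.5 (87.1 to 113) at 15000 to 30000, 57.9 (54.5 to 61.4) at 30000 to 60000 and 53.0 (48.3 to 58.0) at 60000 or more. The intervals of the last 2 strata overlap and those of the others do not. Without the barcodes in both lists these levels were 426, 751, 497, 86.1, 60.8 and 60.7 CPM in the same order of depth. In the 10 percent library the highest levels were 445 CPM (403 to 490) at 6000 to 15000 UMIs and 420 CPM (353 to 495) at 3000 to 6000, followed by 246 CPM (162 to 358) at 1000 to 3000, 199.8 CPM (159 to 247) at 15000 to 30000, 48.1 CPM (36.2 to 62.6) at 30000 to 60000 and 34.5 CPM (28.8 to 40.9) at 60000 or more. There, neighbours in this order had overlapping intervals except for the step from 199.8 to 48.1 CPM. Just outside the class limits, barcodes between 15000 and 20000 UMIs held 278 CPM in the 10 percent (12 barcodes, with 24 of 58 Runx1 UMIs in 1 of them) and 134 CPM in the 90 percent library (42 barcodes). The plot of Runx1 by depth shows the level beside the number of UMIs per barcode.

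**Figure D1:**
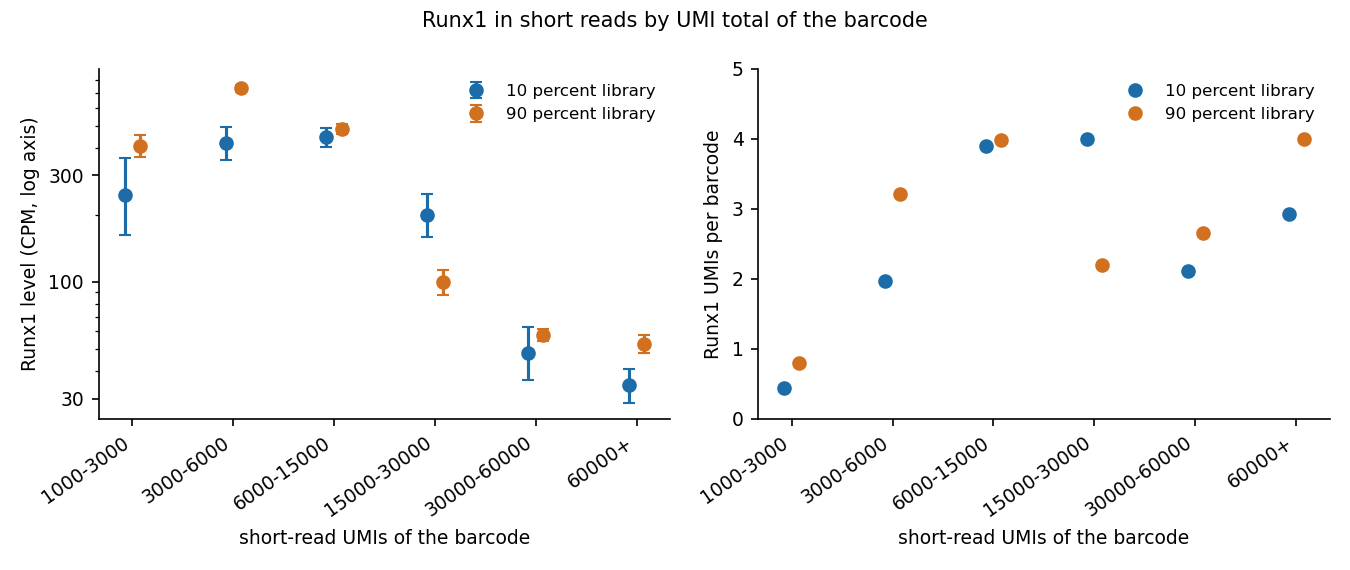
Runx1 in short reads by the UMI total of the barcode (x axis, 6 strata), as CPM on a log axis with 95% counting intervals (left) and as mean Runx1 UMIs per barcode (right), for the 10 percent (blue) and the 90 percent library (orange). From 3000 UMIs on, the level falls from 737 to 53.0 CPM in the 90 percent library, while the UMIs per barcode stay between 2.2 and 4.

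The level was also read in barcodes split by UMIs of cycling and of myogenic genes. Barcodes of 3000 to 15000 UMIs with a UMI of Rrm2, Top2a or Cdk1, which the shallow class leaves out, had 224 CPM of Runx1 (156 to 311) in the 10 percent and 396 CPM (359 to 437) in the 90 percent library. Deep barcodes with 0 UMIs of these genes had 121 CPM (83.9 to 169, 9 barcodes) and 94.0 CPM (77.8 to 113, 35 barcodes), against 36.5 CPM (31.3 to 42.3) and 56.3 CPM (53.6 to 59.1) in deep barcodes with such UMIs. The level was thus higher in barcodes without cycling UMIs, but in the deep range these were also shallower, with median totals of 30859 against 67989 UMIs in the 10 percent and 36428 against 47930 UMIs in the 90 percent library. Median totals of the cycling barcodes of 3000 to 15000 UMIs were 6464 (10 percent) and 5593 (90 percent library). Those of the shallow class were 6729 and 4680. Of the 34 Runx1 UMIs behind the 121 CPM, 14 lay in 1 of the 9 barcodes. Shallow barcodes with a UMI of Myod1, the myogenic factor of activated MuSCs, had 571 CPM in the 10 percent and 791 CPM in the 90 percent library, and those with none had 351 and 560 CPM. The ratios were 1.62 (1.35 to 1.96) and 1.41 (1.33 to 1.5), at nearly equal median totals. Shallow barcodes with a UMI of Pax7 had 408 CPM in the 10 percent library, against 480.0 CPM without (ratio 0.85, 0.654 to 1.09), and 492 against 691 CPM in the 90 percent library (0.712, 0.628 to 0.804), at median totals 1.17 and 1.29 times as high. Among deep barcodes of the 90 percent library the level was 52.6 CPM with 0 UMIs of Myog, a factor of differentiating myoblasts, 66.3 CPM with 1 to 4 UMIs and 85.8 CPM with at least 5 UMIs. The last over the lowest gave a ratio of 1.63 (1.42 to 1.87). In the 10 percent library the same levels were 40.8, 42.9 and 43.9 CPM, and the ratio was 1.08 (0.614 to 1.77) with 6 barcodes in the highest group. Deep barcodes with a UMI of Pax7 had 1.16 times the level of the others in the 90 percent (1.04 to 1.28) and 0.857 times in the 10 percent library (0.642 to 1.14).

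The long reads of the 10 percent library held 3241 Runx1 UMIs, 3.73 times as many as the 870 of the short reads, while over all genes the long reads held 1.23 times as many. Within the classes these factors were 3.18 (shallow) and 2.66 (deep) for Runx1 and 1.24 and 0.908 for all genes. The 1659 UMIs in shallow barcodes gave 1200 CPM of long reads (1143 to 1259) and the 559 in deep barcodes gave 121 CPM (111 to 131), a ratio of 9.94 (9.02 to 11.0), or 9.76 without barcodes with immune UMIs. A Runx1 long read was found in 143 of 157 shallow barcodes (0 to 65 UMIs, median 8) and in 68 of 79 deep barcodes (0 to 39, median 4). No counted Runx1 isoform has the name of a reference transcript, and 6 of the 40 are also named in the deposited annotation.

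The 40 isoforms had 20 distinct 5′ ends, which fell into 8 groups when ends within 1000 bases were joined. The distal group (chr16:92825798-92826074, 13 isoforms) begins inside exon 1 of the distal transcript or in the intron after it. It held 309 of 1659 UMIs in shallow barcodes, 18.6% (16.8 to 20.6%), and 169 of 559 in deep barcodes, 30.2% (26.4 to 34.2%), a difference of -11.6 points (shallow minus deep, -15.9 to -7.46). The proximal group (chr16:92696190-92697325, 14 isoforms) begins in the first exon of the proximal transcript, and its main start lies 3 bases from the annotated one. It held 1018 UMIs in shallow barcodes, 61.4% (59.0 to 63.7%), and 220 in deep barcodes, 39.4% (35.3 to 43.5%), a difference of 22.0 points (17.3 to 26.6). Another group of 4 isoforms begins inside the last exon (chr16:92603655-92604975) and held 11.3% of shallow and 19.9% of deep UMIs, a difference of -8.59 points (-12.4 to -5.09). The proximal promoter thus led in both classes taken as wholes, with a larger lead in the shallow barcodes. It did not lead in the deep barcodes of at least 60000 UMIs, as given below by depth. The other 5 groups together held 8.74% of shallow and 10.6% of deep UMIs, counted with isoforms that start in exon 6 (chr16:92644189-92644211), in exon 5 (position 92668809), in intron 6 (positions 92622031 and 92620763) and upstream of the proximal start (position 92698718).

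Among 1677 genes with at least 50 long-read UMIs in each class and more than 1 start group, 26.5% had a start group whose share differed by at least 10 points, with a median largest difference of 4.52 points, and 7.1% had a difference at least as large as the 22.0 points of Runx1. For single isoforms the largest Runx1 difference was 6.62 points, below the median of 10.7 points over 3230 genes, of which 17.5% had an isoform that differed by at least 20 points and 71.8% one that differed by at least as much as in Runx1. Such a largest difference depends on how many isoforms or groups share a gene's UMIs and on the number of UMIs. Neither was matched between genes, and Runx1 was split over 38 isoforms. For 3′ ends the largest Runx1 difference was 8.64 points, near the median of 8.54 points over 2163 genes, of which 45.1% differed by at least 10 points and 49.5% by at least as much as Runx1.

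The isoforms also differ in where they end. Isoforms that reach the last exon held 66.6% of shallow UMIs (64.3 to 68.9%) and 74.2% of deep UMIs (70.4 to 77.8%). Most of these ended at chr16:92605256-92605509, between 615 and 868 bases into the last exon and past the stop codon. This 3′ end held 47.1% of shallow and 45.1% of deep UMIs, a difference of 2.06 points (-2.73 to 6.79). The 3′ end nearest the end of the gene, at chr16:92601959-92602096, held 12.1% and 20.8%, a difference of -8.64 points (-12.5 to -5.07). An intermediate 3′ end at chr16:92603360-92603656 held 7.35% and 8.41% (difference -1.05 points, -3.9 to 1.38). Not all isoforms counted as reaching the last exon hold the stop codon. The 4 that start inside the last exon begin past it, and they held 11.3% of shallow and 19.9% of deep UMIs. The remaining isoforms ended upstream of the last exon and so without the annotated stop codon. Isoforms that ended at chr16:92695055-92695743 held 22.2% of shallow and 15.03% of deep UMIs, a difference of 7.22 points (3.48 to 10.6). Nearly all of these ended at position 92695055, which is 429 bases into intron 3, in the intron downstream of the exon that both promoters share. An end at position 92691409, also in intron 3, held 10.0% and 6.44% (3.57 points, 0.857 to 5.9). An end at position 92686758 in intron 4 held 1.15% and 4.29% (-3.15 points, -5.2 to -1.62).

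The shares that reached the last exon were then split by promoter. This split, like its alternatives, was added after the values were seen. Of the distal-start UMIs, 21 of 309 reached the last exon in shallow barcodes, 6.8% (4.26 to 10.2%), and 99 of 169 did so in deep barcodes, 58.6% (50.8 to 66.1%), a difference of -51.8 points (-59.3 to -43.5), or -57.0 points without barcodes with immune UMIs. Of the proximal-start UMIs, 752 of 1018 reached the last exon in shallow barcodes, 73.9% (71.1 to 76.5%), and 146 of 220 in deep barcodes, 66.4% (59.7 to 72.6%), a difference of 7.51 points (0.969 to 14.5), whose interval included 0 without doublets (5.85 points, -0.983 to 13.3). Among promoter-start UMIs that reached the last exon, the distal promoter therefore supplied 21 of 773 in shallow barcodes, 2.72% (1.69 to 4.12%), and 99 of 245 in deep barcodes, 40.4% (34.2 to 46.8%). Among those that ended upstream it supplied 52.0% (47.7 to 56.2%) and 48.6% (40.2 to 57.1%).

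As levels, distal-start isoforms that reached the last exon stood at 15.2 CPM of long reads (9.4 to 23.2) in shallow and 21.4 CPM (17.4 to 26.0) in deep barcodes, a ratio of 0.71 (0.421 to 1.15) whose interval includes 1. The other 3 classes were all higher in shallow barcodes. Distal-start isoforms that ended upstream stood at 208 and 15.1 CPM (ratio 13.8, 10.6 to 18.2), proximal-start isoforms that reached the last exon at 544 and 31.5 CPM (17.2, 14.4 to 20.7), and proximal-start isoforms that ended upstream at 192 and 16.0 CPM (12.03, 9.27 to 15.8). The 99 distal-start UMIs that reached the last exon in deep barcodes came from 26 barcodes, with at most 10 in 1 barcode, and the 21 in shallow barcodes came from 16, with at most 4 in 1 barcode. Of the barcodes with a distal-start UMI, 16 of 76 shallow ones, 21.1% (12.5 to 31.9%), and 26 of 40 deep ones, 65% (48.3 to 79.4%), held one that reached the last exon. Both promoters were seen in 72 of 157 shallow barcodes and in 27 of 79 deep barcodes. Neither was seen in 28 shallow and 18 deep barcodes.

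**Figure D2:**
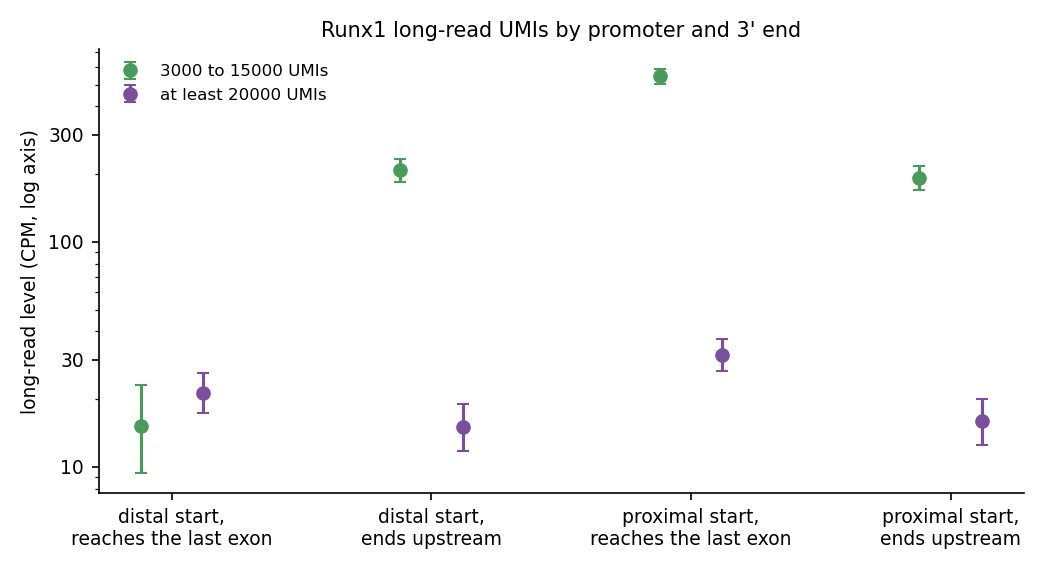
Long-read level of Runx1 (CPM, log axis, with 95% counting intervals) for distal-start and proximal-start isoforms that reach the last exon or end upstream of it, in shallow (green) and deep barcodes (purple) of the 10 percent library. The distal-start isoforms that reach the last exon stand at 15.2 and 21.4 CPM with overlapping intervals, and the other 3 classes are higher in the shallow barcodes.

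Over the 6 strata from 1000 UMIs on, most distal-start reads that reached the last exon lay at the deep end. They were 1 of 32 distal-start UMIs at 1000 to 3000 short-read UMIs, 12 of 84 at 3000 to 6000, 9 of 245 at 6000 to 15000 and 3 of 58 at 15000 to 30000, and then 23 of 35 at 30000 to 60000, 65.7% (47.8 to 80.9%), and 75 of 120 at 60000 or more, 62.5% (53.2 to 71.2%). The share of proximal-start UMIs that reached the last exon stayed between 61.0% and 79.2% over the 6 strata. The share of all Runx1 long-read UMIs with a proximal start was 60%, 59.6% and 60.8% in the strata from 3000 to 30000 UMIs, 50.3% (42.1 to 58.5%) at 30000 to 60000 and 29.0% (24.2 to 34.1%) at 60000 or more. The distal share was 35.5% (30.4 to 40.9%) in that deepest stratum and between 18.7% and 22.9% in the others. In the deepest stratum it was thus above the proximal share, with overlapping intervals. Within these strata the rise of the distal-start reads that reach the last exon thus lay at 30000 UMIs, while the intervals of the proximal share first separated at 60000 UMIs. Barcodes of at most 500 UMIs lie outside the strata, and 39 of their 112 distal-start UMIs reached the last exon.

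**Figure D3:**
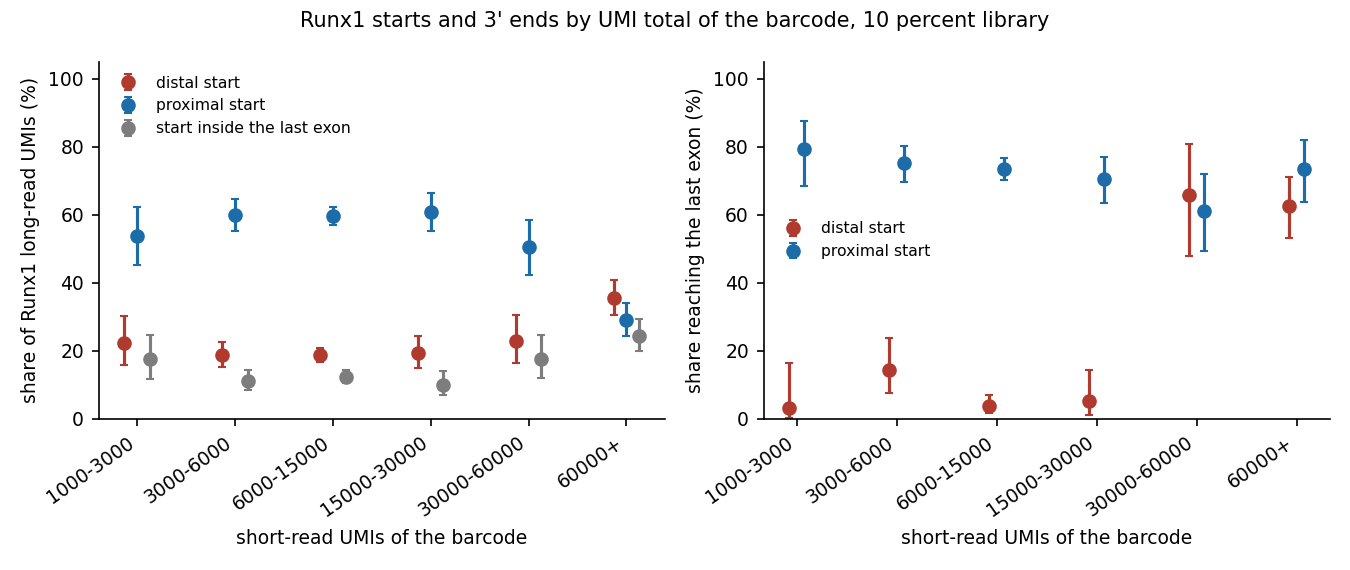
Share of Runx1 long-read UMIs by start group (left) and share of distal-start and proximal-start UMIs that reach the last exon (right), by the short-read UMI total of the barcode (x axis, 6 strata) in the 10 percent library, with exact 95% intervals. Distal-start reads reach the last exon in at most 14.3% of cases in the strata from 1000 to 30000 UMIs and in 65.7% and 62.5% above, while the proximal share falls to 29.0% in the deepest stratum.

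Of the 40 isoforms, 21 had at least 15 UMIs over both classes, and the other 19 held 83 shallow and 52 deep UMIs. The isoform with most UMIs in shallow barcodes ran from the proximal start 92697325 to 92605256 and held 252 UMIs there, 15.2% (13.5 to 17.0%), and 49 in deep barcodes, 8.77% (6.56 to 11.4%). Next came 2 isoforms from that start to 92605500, numbered 2 and 1 in their names, with 203 and 181 shallow UMIs (12.2% and 10.9%) and 41 and 32 deep UMIs (7.33% and 5.72%), and the isoform that ended at 92691409, with 166 (10.0%) and 36 (6.44%). These 4 isoforms from the same start each had a larger share in shallow barcodes. The distal-start isoforms ending at 92695055 began at 92825798, with 149 shallow (8.98%) and 32 deep UMIs (5.72%), or at 92826074, with 128 (7.72%) and 34 (6.08%). The interval of the difference excluded 0 for the one from 92825798 (3.26 points, 0.671 to 5.46) and not for the one from 92826074 (1.63 points, -0.953 to 3.82), for which it did so without barcodes with immune UMIs (3.41 points, 0.924 to 5.43) and without doublets (2.92 points, 0.398 to 5.0). In deep barcodes the isoform with most UMIs lay within the last exon, from 92603655 to 92601959, with 70 deep UMIs, 12.5% (9.89 to 15.6%), and 98 shallow UMIs, 5.91% (4.82 to 7.15%). The isoform from 92604453 to 92602096, also within the last exon, held 41 deep (7.33%) and 85 shallow UMIs (5.12%), a difference of -2.21 points (-4.86 to 0.00441) whose interval excluded 0 without barcodes with immune UMIs, without doublets and with the deep class from 30000 UMIs, among others.

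Of the named distal-start isoforms that reached the last exon, the fourth from 92825798 to 92605500 had 33 UMIs in 9 deep barcodes and 5 UMIs in 3 shallow barcodes, the second had 18 and 4 UMIs, and the one from 92826074 had 16 and 2. All 3 had larger shares in deep barcodes, with differences of -5.6, -2.98 and -2.74 points and intervals that exclude 0. A short proximal isoform from 92696644 to 92695055 held 81 shallow (4.88%) and 14 deep UMIs (2.5%), a difference of 2.38 points (0.476 to 3.9) whose interval included 0 without barcodes with immune UMIs (-0.0946 to 3.64), and one from 92696545 to 92686758 held 19 shallow (1.15%) and 24 deep UMIs (4.29%). The share of the latter was thus the larger in deep barcodes, unlike the main proximal isoforms. The isoforms from exon 6 and intron 6 held 55, 14, 27 and 26 shallow and 16, 5, 10 and 16 deep UMIs, and 3 proximal ones from 92696886 and 92696740 held 26, 23 and 21 shallow and 6, 3 and 7 deep UMIs, with intervals of the difference that included 0 in each case. For the isoform from 92620763 (26 and 16 UMIs) the interval excluded 0 with the deep class from 30000 UMIs (-1.69 points, -3.72 to -0.255) and under 2 other alternatives. The distal-start isoform from 92825826 to 92695743 held 11 and 4 UMIs. Of the 38 isoforms with a UMI in either class, the interval of the difference lay above 0 for 6 (15.8%) and below 0 for 13 (34.2%), against 19.5% and 10.5% of 34473 isoforms of the 3230 genes tested. All 9 distal-start isoforms that reached the last exon are among the 13, so these are not separate shifts. Some of the 9 had UMIs in only 1 deep barcode.

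**Figure D4:**
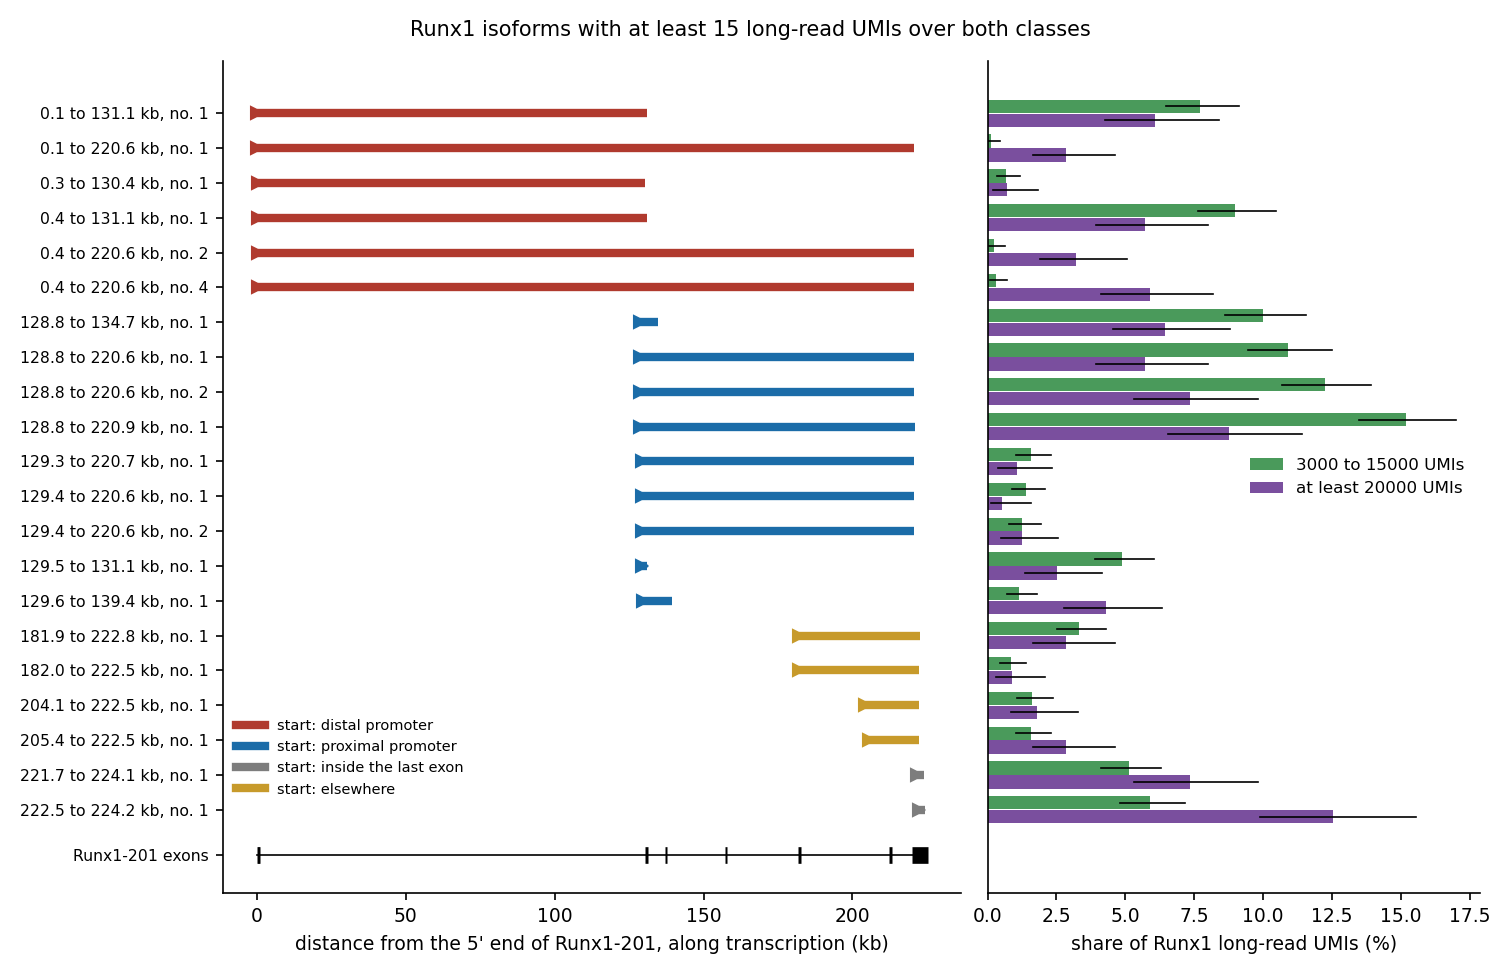
The 21 Runx1 isoforms with at least 15 long-read UMIs over both classes, drawn from 5′ to 3′ as distance in kb from the 5′ end of the distal reference transcript with its exons at the bottom (left; arrowheads mark starts, labels give start, 3′ end and the isoform's number), and their share of Runx1 UMIs in shallow (green) and deep barcodes (purple) with exact 95% intervals (right). Distal-start isoforms that run to the last exon have small shares in shallow barcodes, at most 0.301%, and 2.86% to 5.9% in deep ones.

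The deposited annotation gives exons and supporting reads for 49 Runx1 isoforms, without a split by barcode. Its names match few of the counted ones, often differing by a single base, so its structures were not transferred to UMIs. Of 4301 supporting reads, 28.4% were of isoforms with a distal start and 36.4% of isoforms with a proximal start (between exon 3 and 2000 bases before the start of the proximal transcript). Ends upstream of the last exon took 81.5% of the distal reads and 8.36% of the proximal reads. The distal isoform with the name 92695055 to 92826074 had 135 supporting reads and 3 exons, the last of 683 bases running from exon 3 into intron 3, so it holds the distal start codon and lacks exons 4 to 8. Other distal isoforms that end early were a reference transcript without an annotated coding sequence that ends at 92815428 in intron 2, with 289 reads, and an isoform that ends at 92823957 in intron 2, with 259 reads. Neither is among the 40 counted isoforms, and no counted 3′ end lies near either position. The UMI shares by promoter and 3′ end given above therefore leave both out. Exons 6 and 7 are alternatively used. Among isoforms that run from exon 5 to the last exon, exon 6 (chr16:92644154-92644345, 192 bases) was left out in 9.65% of 1875 reads (8.35 to 11.1%). It was left out with exon 7 present in 62 of 207 distal-start reads, 29.95% (23.8 to 36.7%), and in 119 of 1391 proximal-start reads, 8.55% (7.14 to 10.1%). Exon 7 (chr16:92613599-92613760) was left out with exon 6 present in 11 distal-start reads, 5.31% (2.68 to 9.31%), and in 155 proximal-start reads, 11.1% (9.54 to 12.9%). Reads are PCR products without a molecule count here, so these intervals cover the counting of reads alone. The gene Gm26626 lies on the opposite strand across exon 7 of Runx1 and parts of introns 6 and 7 (chr16:92612814-92620105). It had no counted long-read isoform and 6 short-read UMIs in the 90 percent library, and whether the counting used strand is not given in the sources used here.

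Genes tied to Runx1 by textbook knowledge were read in the short reads of both libraries. Of 46 such genes in the 10 percent table besides Runx1, 41 had enough UMIs, 14 of them were at least 2-fold higher and 5 at least 2-fold lower in shallow barcodes, against the 8.39% and 13.4% of all genes given above. Of the genes in the 90 percent library, 44 had enough UMIs and again 14 were higher and 5 lower, against 6.06% and 9.22%. Without the barcodes in both lists, 13 of 43 were higher and 6 lower, against 6.66% and 9.85%. In the Runt family, Runx2, a regulator of bone formation, was at 5.38 CPM in shallow and 11.8 CPM in deep barcodes of the 10 percent library and at 2.63 and 17.2 CPM in the 90 percent library, where it passed 2-fold lower. Runx3 was at 0 UMIs in shallow barcodes of both libraries, with 3 and 14 UMIs in deep barcodes. Cbfb, the non-DNA-binding partner of Runx1, was at 33.2 and 40.6 CPM in the 10 percent library and at 87.9 and 59.3 CPM in the 90 percent library, and did not pass 2-fold in either. The partner thus showed no difference of the size seen for Runx1.

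The AP-1 factors, which bind together with Runx1 at many enhancers, were the list with most genes higher in shallow barcodes. Of 8 with enough UMIs, 6 passed 2-fold higher in the 10 percent and 7 in the 90 percent library, against 8.39% and 6.06% of all tested genes. None was lower, against 13.4% and 9.22% of all tested genes. The median log2 ratio of the list was 2.01 and 2.15, against -0.16 and -0.06 over all genes tested. Junb was at 878 and 106 CPM in shallow and deep barcodes of the 10 percent library, and at 1061 and 109 CPM in the 90 percent library. Fos, an immediate-early gene, was at 138 and 17.1 CPM in the 10 percent and at 245 and 17.8 CPM in the 90 percent library. Fosl2 was at 151 and 16.7 CPM and at 180 and 27.9 CPM. Jun itself did not pass 2-fold, at 188 and 151 CPM in the 10 percent and 225 and 148 CPM in the 90 percent library.

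Of the coactivators and modifiers, Yap1 and Wwtr1, the effectors of the Hippo pathway, passed 2-fold higher in both libraries, at 39.5 against 12.9 and 101 against 37.7 CPM in the 10 percent library. Without the barcodes in both lists Yap1 did not pass (40.3 against 15.5 CPM, a fold of 1.97). Prmt1, an arginine methyltransferase that modifies Runx1, and Cdk6, a cyclin-dependent kinase, passed 2-fold lower in both, at 68.2 against 331 and 7.18 against 44.1 CPM in the 10 percent library. The acetyltransferase Crebbp lay at the limit in both libraries. It passed in the 10 percent library (58.3 and 23.5 CPM, a fold of 2.04) and not in the 90 percent library (66.5 and 28.9 CPM, 1.97). Ep300 passed in neither, at 8.08 and 7.06 CPM in the 10 percent library. Of the corepressors, a single gene passed in each library, Tle1 in the 10 percent (34.99 and 10.6 CPM) and Tle4 in the 90 percent library (22.8 and 3.61 CPM), and none of 10 and 12 with enough UMIs was lower. A single gene is near the 8.39% and 6.06% of all genes. The median log2 ratio of the corepressors was 0.13 and 0.27.

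Of the muscle genes, 12 had enough UMIs in the 10 percent and 13 in the 90 percent library. In each library 4 were at least 2-fold higher in shallow barcodes, against 8.39% and 6.06% of all tested genes: Myod1, Myf5, Musk and Gadd45a. At least 2-fold lower were 3 and 2, against 13.4% and 9.22% of all tested genes. The median log2 ratio of the list was -0.3 and -0.12. Myod1 was at 1106 and 185 CPM and Myf5, the other early myogenic factor, at 190.2 and 15.1 CPM in the 10 percent library. Gadd45a, a stress-response gene, was at 335 and 61.8 CPM in the 10 percent and at 528 and 71.2 CPM in the 90 percent library. Musk, a receptor kinase of the neuromuscular junction, was at 30.5 and 5.69 CPM and at 49.6 and 7.2 CPM. Chrna1 and Chrnd, subunits of the acetylcholine receptor, were at least 2-fold lower in shallow barcodes of both libraries, Chrna1 at 30.5 and 208 CPM and Chrnd at 1.79 and 16.7 CPM in the 10 percent library. Myog was lower in the 10 percent library (1.79 and 33.1 CPM) and did not pass in the 90 percent library (36.7 and 74.6 CPM).

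**Figure D5:**
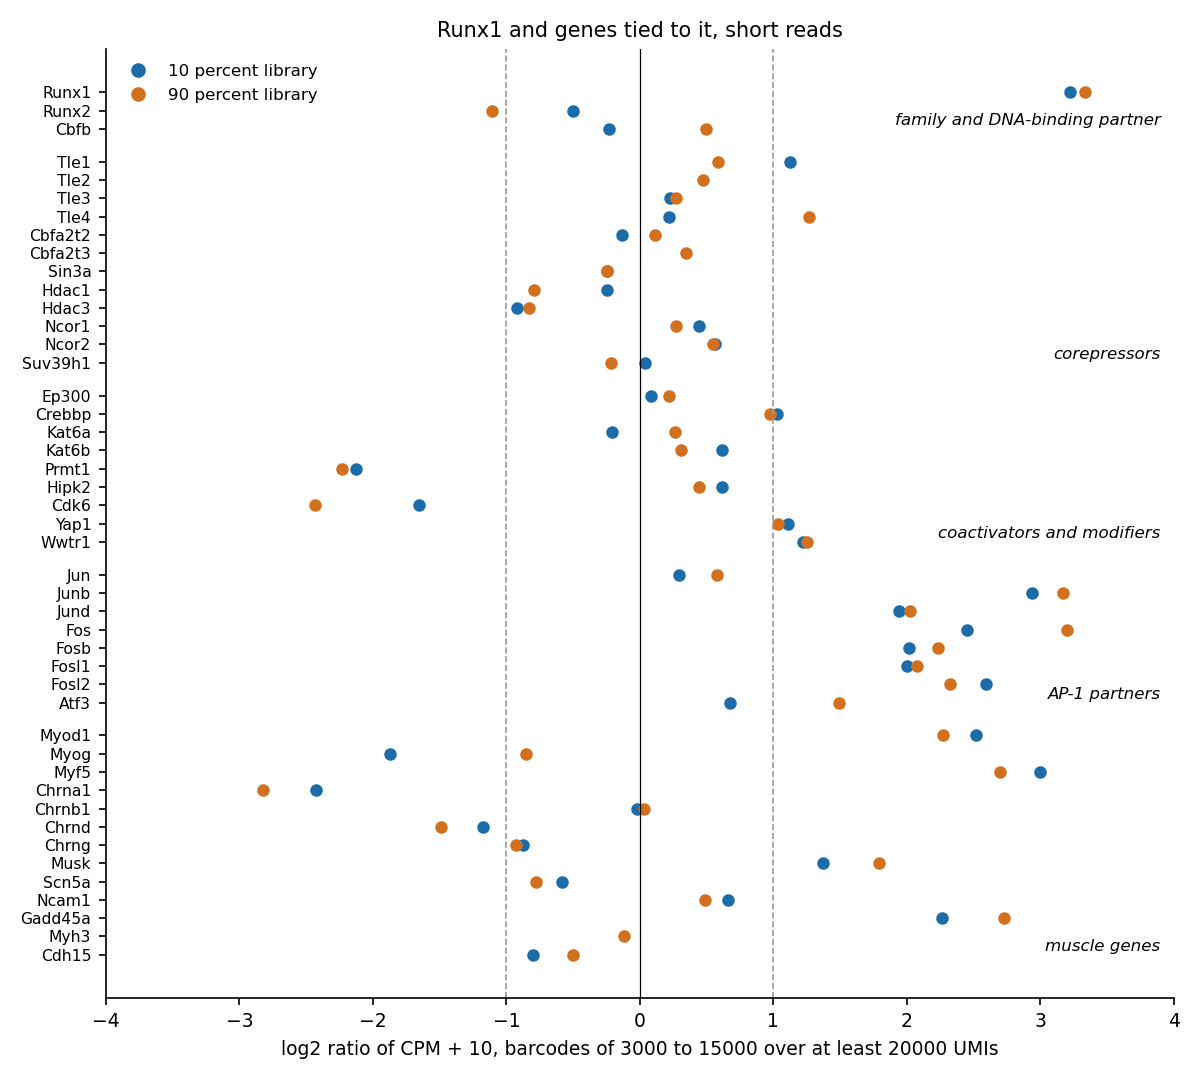
Log2 ratio of CPM plus 10 in shallow over deep barcodes (x axis) for Runx1 and the genes tied to it that had at least 20 UMIs over both classes, in the 10 percent (blue) and the 90 percent library (orange), and dashed lines mark 2-fold. The AP-1 factors lie to the right, with 6 of 8 and 7 of 8 past the line, against 8.39% and 6.06% of all tested genes. Chrna1 lies furthest to the left in both libraries.

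Across 12 strata of depth, 6 in each library, the genes whose log2(CPM + 10) was most like that of Runx1 among 4406 genes with a mean of at least 20 CPM were Errfi1 (Pearson r = 0.996), Pde4b (0.994), Slc43a3 (0.994), Ier2 (0.991), Srsf5 (0.989), Dnajb9 (0.989), Zeb2 (0.988), Btg1 (0.987), Ppp1r15a (0.987) and Sdc4 (0.986). The strata share depth and barcodes, so these values describe a common course over depth. Errfi1, an inhibitor of EGF receptor signalling, was at 1855 CPM in shallow and 59.2 CPM in deep barcodes of the 10 percent library. Pde4b, a cAMP phosphodiesterase, was at 301 and 10.6 CPM, and Sdc4, a cell surface proteoglycan used as a marker of satellite cells, was at 581 and 59.6 CPM.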

How the data were processed

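Short-read UMI counts per gene were deposited for both libraries of MuSCs and long-read UMI counts per isoform for the 10 percent library, all as raw counts. Genes were counted by the authors with scPipe, and isoforms were assembled and counted by them with FLAMES on minimap2 alignments (2.17 in the submitters' processing notes, which also name Cell Ranger 1.3 and GRCm38.p6). The deposited isoform annotation gives exon positions and supporting reads. Long reads were aligned without secondary alignments, isoforms likely to be truncated were collapsed, and reads that covered too little of a transcript or could not be assigned to a single one were dropped by the authors. How strand, and multi-mapping short reads, were treated is not given in the sources used here. The tables hold 6772259 short-read UMIs over 1991 barcodes (10 percent library), 39044129 over 3001 (90 percent library) and 8297203 long-read UMIs, and no cell filter beyond the classes was applied.

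The members, lists and comparisons were chosen with earlier results of these data known. Counts were summed over the barcodes of a class. CPM have exact Poisson 95% intervals, ratios exact conditional intervals, shares exact Clopper-Pearson intervals and differences of shares Newcombe intervals. UMIs of 1 capture are not replicates, so no test was made and the intervals cover counting error alone. Genes were called past 2-fold after adding 10 CPM, with at least 20 UMIs over both classes. Isoforms with at least 15 UMIs over both classes were named one by one, with the genes of the lists and the 10 genes most like Runx1. Doublets were sought with Scrublet (scanpy 1.11.5), which marked 8 of 330 and 3 of 2420 barcodes of at least 1000 UMIs, so few in the 90 percent library that it may not have worked there, and these were left out in an alternative only. Thinned shares are hypergeometric expectations. Exons and reference sequences are from Gencode vM21 and promoters from RefSeq. Computations used Python 3.11.15 and scipy 1.17.1, and functions were tested on simulated data. Alternatives were other class limits, no barcodes with at least 2 immune UMIs, no doublets, other totals, thinning, other joining distances and isoform minimums, and, added after seeing the data, leaving out shared barcodes and every alternative for the split of starts by 3′ end and for the counts of related genes.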

Additional observations from a re-analysis of the deposited data

Results flagged for a closer look

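Long reads of Runx1 also lay outside the barcodes that the comparisons use. Barcodes of at most 500 short-read UMIs in the 10 percent library held 512 Runx1 long-read UMIs in 299 of 1613 barcodes, at 313 CPM of long reads (286 to 341), and 11 Runx1 short-read UMIs. They held 15.8% of all Runx1 long-read UMIs and 19.7% of the long-read UMIs of all genes. Of these 512 UMIs, 21.9% had a distal and 49.4% a proximal start, and 39 of the 112 distal-start UMIs reached the last exon. In the 90 percent library the barcodes of at most 500 UMIs held 19 Runx1 short-read UMIs, above the limit that a count of 0 allows (3 counts).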

How the results depend on the processing

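No difference whose interval excluded 0 changed sign under the alternatives run. The share of barcodes with a Runx1 UMI in the 10 percent library, whose interval included 0, differed by -2.91 points with the deep class from 30000 UMIs and by -0.952 points without barcodes with immune UMIs, against 0.524 points as reported. Of 340 recomputed values, 335 stayed within the interval of the reported value, or within 1.5 times for a count, and 5 moved. The level ratio of the 10 percent library was 9.1 as the mean CPM of single barcodes, and that of the 90 percent library was 11.0 without the condition on cycling genes. Thinned to 3000 UMIs, the share of barcodes with a Runx1 UMI differed by 55.1 points in the 10 percent and 60.6 points in the 90 percent library. The distal share differed by -16.7 points when isoforms spanning under 5000 bases, among them those within the last exon, were left out. The share of distal-start UMIs that reach the last exon differed by -57.4 to -46.5 points over its alternatives and the proximal share by 19.9 to 25.7 points. The share of proximal-start UMIs that reach the last exon differed by 5.85 points without doublets (-0.983 to 13.3) and by 5.87 points with the deep class from 30000 UMIs (-1.17 to 13.6), both with an interval that includes 0. The alternative of reference-named isoforms was not run, since no counted Runx1 isoform has such a name. No paired analysis was possible because the libraries are aliquots of 1 capture with 1 sample each and no result comes from a test. With no replicate and 559 Runx1 long-read UMIs in deep barcodes, small isoforms there rest on a few barcodes.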
